A study of Mus musculus with 11 samples.

Results

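Transcripts of 9 genes of the TGF-beta pathway were followed in alveolar macrophages (AMs) with and without the nuclear receptors RXRα and RXRβ. The genes are the ligand *Tgfb1*, the receptors *Tgfbr1* and *Tgfbr2*, the signal carriers *Smad2*, *Smad3* and *Smad4*, and the feedback genes *Smad7*, *Skil* and *Pmepa1*. They were chosen by name, and each of the 9 is among the 12932 genes of the deposited expression table. The table covers RNA from AMs of 9-week-old mice of both sexes, with 40000 sorted cells behind each library and 60-base reads from 1 end of the fragments. Control mature AMs (mAMs, CD11b-/SiglecF+) came from CD11cCre- Rxrabfl/fl mice, which carry the floxed *Rxra* and *Rxrb* alleles without Cre (4 libraries). RXR-deficient mAMs (4 libraries) and RXR-deficient immature AMs (ImmAMs, CD11b+/SiglecF+, 3 libraries, replicates 2 to 4) came from CD11cCre+ Rxrabfl/fl mice. Cre is driven by the Cd11c promoter, which is active in AMs and also in dendritic cells, so other CD11c+ cells of these mice lose the alleles too. Control ImmAMs were not analysed here, and in the comparison of ImmAMs with control mAMs the cell state and the genotype cannot be told apart. The tests used control replicates 1 to 4, RXR-deficient mAM replicates 1 to 3 and the 3 ImmAM libraries, since the study used n = 4, 3 and 3. RXR-deficient mAM replicate 4, for whose omission no reason was found, is given beside them.

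TGF-beta is made as a latent dimer that is released outside the cell. The active ligand binds the type II receptor TGFBR2, which recruits and phosphorylates the type I receptor TGFBR1. TGFBR1 then phosphorylates SMAD2 and SMAD3, which join SMAD4 and enter the nucleus to regulate genes. Among the genes they induce are brakes on the pathway, including *Smad7*, *Skil* and *Pmepa1*. In the lung, TGF-beta made by AMs themselves is known to be needed for their development and upkeep.

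Values are the deposited CPM (reads of a gene scaled to a common library size), and a change is the difference of group means of log2 CPM. Each library had between 19927934 and 37873532 counted reads in control mAMs, from 17964528 to 23545727 in RXR-deficient mAMs and from 16659960 to 21335567 in ImmAMs. The targeted genes were measured over their whole length, which includes exons left in place by Cre. *Rxra* was at 310 to 380 CPM in control mAMs, 334 to 419 CPM in RXR-deficient mAMs and 283 to 305 CPM in ImmAMs, and *Rxrb* was at 51.4 to 72.1, 39.3 to 55.3 and 31.9 to 35.2 CPM. The gene-level value of *Rxra* therefore does not check the genotype labels of the mAM libraries. The cell labels were compared with marker genes. The 9 of 10 listed markers of monocyte-derived or CD11b+ macrophages with values summed to 100 to 113 CPM in control mAMs, 101 to 133 CPM in RXR-deficient mAMs and 1834 to 2028 CPM in ImmAMs, and *Itgam*, which encodes CD11b, was at 3.52 to 3.85, 3.93 to 9.95 and 168 to 174 CPM. All 10 mAM markers had values in each group, and their sums overlapped (18908 to 24663, 22793 to 28930 and 22166 to 23880 CPM, most of it *Chil3*). However, 8 of the 10 (*Siglecf*, *Car4*, *Fabp4*, *Marco*, *Ear2*, *Krt79*, *Cidec* and *Itgax*) were lower in all ImmAM libraries than in any mAM library, while *Chil3* and *Pparg* overlapped. *Marco* was at 10.9 to 13.8 CPM in ImmAMs against 281 to 377 CPM in the 8 mAM libraries, and *Siglecf* at 19.3 to 19.7 CPM against 244 to 264 CPM in control mAMs and 198 to 241 CPM in RXR-deficient mAMs. No T or NK cell marker (0 of 7) and no fibroblast marker (0 of 5) had a value. The neutrophil markers (5 of 5 with values) summed to 30.7 to 39.5, 24.6 to 40.6 and 51.7 to 61.9 CPM, most of it *Csf3r*. Of the 5 endothelial markers only *Vwf* had a value, at 118 to 145, 131 to 164 and 300 to 332 CPM. The 2 epithelial markers with values, of 6, summed to 7.92 to 14.2, 7.81 to 14.98 and 1.42 to 2.80 CPM. B cell, dendritic cell and platelet markers (1 of 5, 1 of 6 and 1 of 4 with values) were at most 3.02 CPM in any library. The part of these other cells in the results on ImmAMs was not tested.

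Across the 9 genes, RXR-deficient mAMs differed from control mAMs mainly in *Pmepa1*, which was 7.38-fold lower, and by a smaller margin in *Tgfb1*. ImmAMs shared the low *Pmepa1* and in addition had less *Tgfbr2* (1.96-fold) and more *Smad7* (4.56-fold) and *Skil* (1.65-fold) than control mAMs. *Smad3* was also higher in ImmAMs, but it reached the filter on low values only through these libraries, at 6 to 12 reads per control library, so its direction was fixed by that filter and it is no support for the counts below. Limma called 2 of the 9 genes in RXR-deficient mAMs against control mAMs (0 higher and 2 lower; 2 higher and 2 lower at an unadjusted p under 0.05), where 4.84% of the 12889 genes tested were called (2.25% higher and 2.59% lower). In ImmAMs against control mAMs it called 7 of 9 (4 higher and 3 lower), where 48.1% of all genes were called (22.8% higher and 25.3% lower). In ImmAMs against RXR-deficient mAMs it called 4 of 9 (3 higher and 1 lower), where 37.9% of all genes were called (17.7% higher and 20.2% lower). The libraries of the compared groups did not overlap for 4, 7 and 6 of the 9 genes in these comparisons, against 20.1% (8.92% higher and 11.2% lower), 51.3% (24.9% and 26.4%) and 51.2% (24.8% and 26.3%) of all genes. Of these members, 2 were higher and 2 lower in the first comparison, 5 and 2 in the second, and 5 and 1 in the third. With RXR-deficient mAM replicate 4 in the fit, the called genes numbered 1, 6 and 4, and those without overlap 2, 7 and 6. The first and the second comparison share the control libraries, and the second and the third share the ImmAM libraries.

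**Figure D1:**
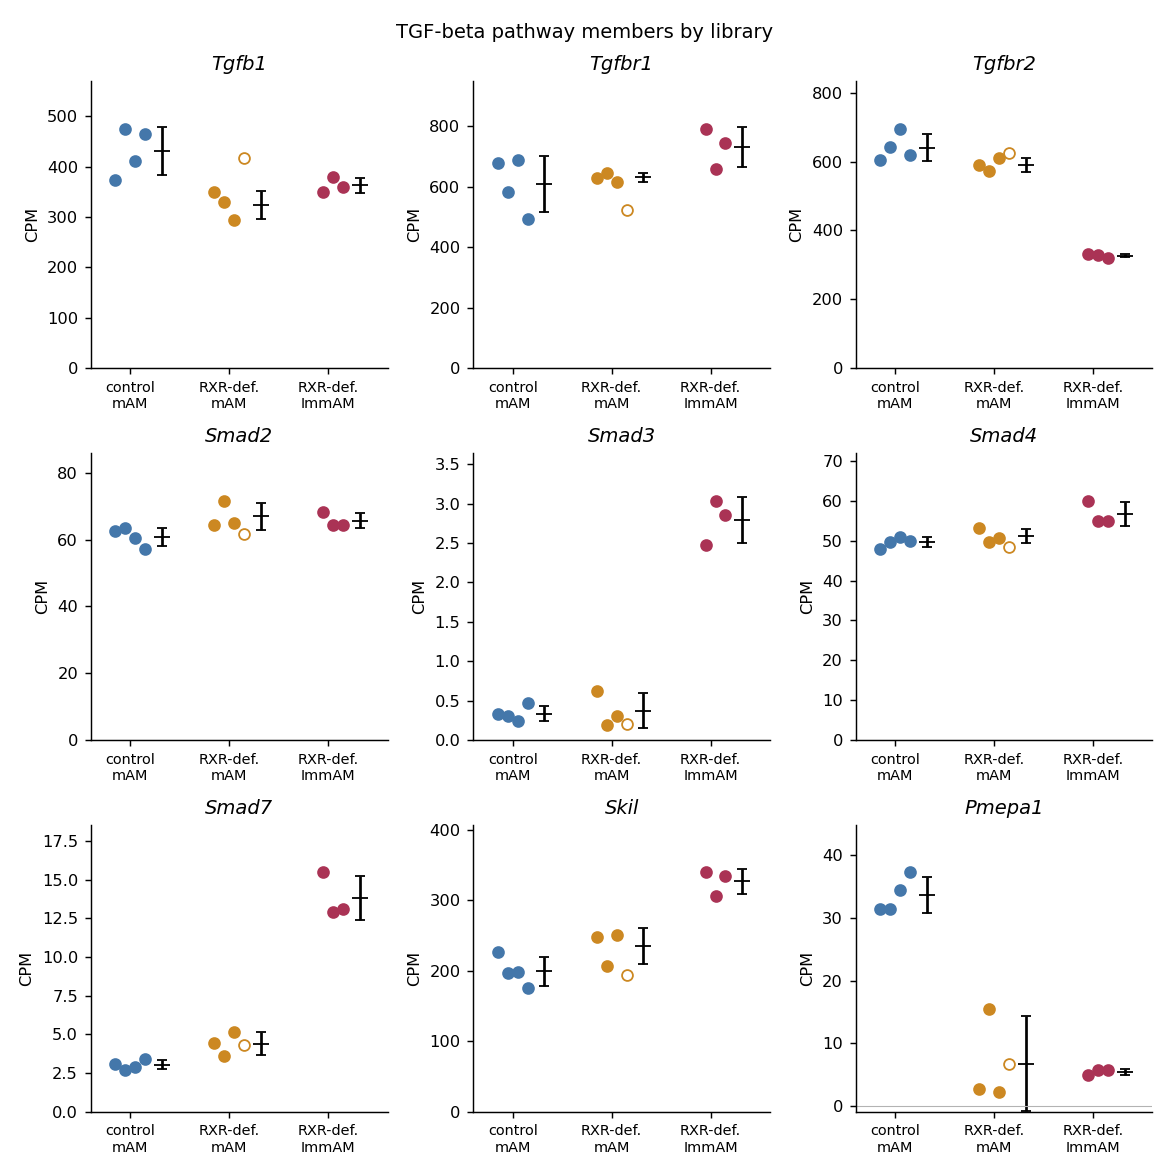
CPM (linear axis) of each of the 9 genes in every library of control mAMs, RXR-deficient mAMs and RXR-deficient ImmAMs. Filled points are libraries used in the tests, the open point is RXR-deficient mAM replicate 4, and the black bar is mean ± SD of the filled points, which for *Pmepa1* in RXR-deficient mAMs (6.80 ± 7.49 CPM) extends below 0. *Tgfbr2* is lower and *Smad3*, *Smad7* and *Skil* are higher in all 3 ImmAM libraries than in any mAM library, and *Pmepa1* is lower in all RXR-deficient libraries than in any control library.

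*Tgfb1* (ENSMUSG00000002603; GRCm38 chromosome 7, 25687002 to 25705077, plus strand) encodes TGF-beta 1, the ligand. In control mAMs it was at 374, 475, 411 and 464 CPM in replicates 1 to 4 (431 ± 47.2 CPM; SD, n = 4). In RXR-deficient mAMs it was at 350, 329 and 294 CPM in replicates 1 to 3 (324 ± 28.3 CPM; SD, n = 3) and at 418 CPM in replicate 4. In ImmAMs it was at 349, 380 and 361 CPM (363 ± 15.5 CPM; SD, n = 3). The 3 tested RXR-deficient mAM libraries lay below all control libraries, while replicate 4 lay above 2 of them. RXR-deficient mAMs thus had a log2 fold change of −0.41 (SE 0.0889, limma adjusted p = 0.0253), and with replicate 4 it was −0.32 and no longer called (adjusted p = 0.147). Nor was it called without control replicate 2 or 4 or without RXR-deficient mAM replicate 3 (adjusted p = 0.0748, 0.0503 and 0.112). The same held with only the 2 groups compared, with no variance trend and with replicate number as a block. In all, the call in RXR-deficient mAMs held in 16 of 23 alternative settings. In ImmAMs the difference from control mAMs was −0.24 (SE 0.0889, limma adjusted p = 0.0392), with overlapping libraries. That call was lost without control replicate 2 or 4 or without any of the 3 ImmAM libraries, at adjusted p from 0.0520 to 0.131. Other settings that lost it were edgeR, limma-voom, median-ratio scaling and quantile normalization. So did RXR-deficient mAM replicate 4 in the fit, no variance trend, and replicate number as a block. The call held in 11 of 23 alternative settings. Between ImmAMs and RXR-deficient mAMs the difference of 0.17 did not pass the test (95% interval −0.04 to 0.37, limma adjusted p = 0.193).

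The receptors differed from each other in ImmAMs. *Tgfbr2* (ENSMUSG00000032440; chromosome 9, 116084293 to 116175360, minus strand), the ligand-binding type II receptor, was at 605, 643, 695 and 620 CPM in control mAMs (641 ± 39.4 CPM; SD, n = 4). It was at 589, 572 and 610 CPM in RXR-deficient mAMs (590 ± 19.3 CPM; SD, n = 3), with 624 CPM in replicate 4. In the 3 ImmAM libraries it was at 330, 330 and 321 CPM (327 ± 5.50 CPM; SD, n = 3). The ImmAM libraries agreed closely and lay far below every mAM library. The fall was 0.97 on the log2 scale against control mAMs (log2 fold change −0.97, SE 0.0620, limma adjusted p = 4.91e-08). Against RXR-deficient mAMs, which have the same genotype, the log2 fold change was −0.85 (SE 0.0662, limma adjusted p = 5.70e-07). Both calls held in 23 of 23 alternative settings. RXR-deficient mAMs differed from control mAMs by −0.12 (95% interval −0.25 to 0.02, limma adjusted p = 0.276), which did not pass the test.

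*Tgfbr1* (ENSMUSG00000007613; chromosome 4, 47353222 to 47414931, plus strand), the signalling type I receptor, was at 679, 582, 689 and 492 CPM in control mAMs (611 ± 92.6 CPM; SD, n = 4). In RXR-deficient mAMs it was at 630, 645 and 617 CPM (631 ± 14.0 CPM; SD, n = 3), and at 523 CPM in replicate 4. In ImmAMs it was at 791, 660 and 744 CPM (732 ± 66.7 CPM; SD, n = 3). The control libraries spread widely, and the lowest ImmAM library lay inside their range. The difference of ImmAMs from control mAMs, 0.27 (95% interval 0.04 to 0.50), stood at the threshold (limma adjusted p = 0.0530) and was called in 11 of 23 alternative settings, among them without control replicate 1 or 3 or ImmAM replicate 3 (adjusted p = 0.0289, 0.0240 and 0.0362). The other differences were 0.06 in RXR-deficient mAMs against control mAMs (95% interval −0.17 to 0.29) and 0.21 in ImmAMs against RXR-deficient mAMs (95% interval −0.04 to 0.46, limma adjusted p = 0.170). Per kb of exon, *Tgfbr1* stood at 0.993 to 1.41 times the level of *Tgfbr2* in the 8 mAM libraries and at 2.505 to 3.004 times that level in the 3 ImmAM libraries, a ratio that was computed after the values had been seen and was not tested.

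*Smad2* and *Smad4* were nearly flat, and *Smad3* was close to the detection limit in mAMs. *Smad2* (ENSMUSG00000024563; chromosome 18, 76241580 to 76310963, plus strand), which is phosphorylated by TGFBR1, was at 62.5, 63.4, 60.4 and 57.2 CPM in control mAMs, at 64.5, 71.7 and 65.0 CPM in RXR-deficient mAMs (61.8 CPM in replicate 4) and at 68.2, 64.5 and 64.3 CPM in ImmAMs. Although both RXR-deficient groups lay above the control libraries (leaving replicate 4 aside), the changes of 0.14 (95% interval −0.01 to 0.29, limma adjusted p = 0.258) and 0.11 (95% interval −0.04 to 0.26, limma adjusted p = 0.224) did not pass the test. *Smad4* (ENSMUSG00000024515; chromosome 18, 73639009 to 73703780, minus strand), the shared partner of the phosphorylated SMADs, was at 47.9, 49.7, 51.0 and 49.8 CPM in control mAMs, at 53.1, 49.7 and 50.8 CPM in RXR-deficient mAMs (48.4 CPM in replicate 4) and at 60.1, 54.9 and 55.1 CPM in ImmAMs. All ImmAM libraries were above all mAM libraries, by a small margin. The log2 fold change of ImmAMs against control mAMs was 0.19 (SE 0.0692, limma adjusted p = 0.0367). That call was lost without control replicate 1 or 2 or without any ImmAM library (adjusted p from 0.0550 to 0.160). It was also lost with only the 2 groups compared and with replicate number as a block, and held in 16 of 23 alternative settings. RXR-deficient mAMs differed from control mAMs by 0.04 (95% interval −0.11 to 0.19), and ImmAMs from RXR-deficient mAMs by 0.15 (95% interval −0.01 to 0.31, limma adjusted p = 0.139).

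*Smad3* (ENSMUSG00000032402; chromosome 9, 63646767 to 63757994, minus strand) carries the signal like *Smad2* but binds DNA directly. It had 12, 7, 6 and 9 reads in control mAMs (0.330, 0.302, 0.244 and 0.467 CPM) and 13, 4 and 5 reads in RXR-deficient mAMs (0.623, 0.191 and 0.305 CPM), with 4 reads (0.206 CPM) in replicate 4. ImmAMs had 41, 65 and 54 reads (2.47, 3.04 and 2.86 CPM). The ImmAM libraries were each above every mAM library. Limma gave a log2 fold change of 3.09 against control mAMs (SE 0.556, 95% interval 1.89 to 4.30, limma adjusted p = 5.24e-04) and 3.07 against RXR-deficient mAMs (SE 0.595, limma adjusted p = 0.00126). A further pseudocount of 1 CPM lowered the first to 1.51. *Smad3* passed the filter on low values only through the ImmAM libraries, so it had to differ in that direction to be tested, and without any 1 of them it could not be tested. Between the mAM groups its difference of 0.02 had a 95% interval from −1.18 to 1.23, and a change within it was not detectable at these read numbers.

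For 4 genes (*Tgfb1*, *Smad3*, *Tgfbr2* and *Tgfbr1*), the 250 bases before the annotated start in the RefSeq sequences (GRCm38.p6) were searched on both strands. The letters sought were CAGAC, the core bound by SMAD3 and SMAD4, and AGGTCA, the hexamer bound by nuclear receptors such as RXR and its partners. These genes gave 5 windows, 2 of them of *Tgfbr1*. Windows of the other members were not searched, so the counts do not stand for the members as a whole. CAGAC occurred in 2 of the 5 windows, those of *Tgfbr2* and of the second *Tgfbr1* start, and in 42.2% of the 32851 windows of all genes. AGGTCA occurred in 0 of the 5 windows and in 14.0% of all windows. The windows of *Tgfbr2* and *Smad3* are printed 5′ to 3′ on the strand of the gene, ending at the base before the start. They were picked because these genes moved in opposite directions in ImmAMs. However, the direction of *Smad3* was fixed by the filter on low values, so nothing is drawn from that contrast. Capitals mark CAGAC, which is in the first and not in the second. They span chr9:116175364-116175613 (minus strand) and chr9:63757995-63758244 (minus strand).
Tgfbr2: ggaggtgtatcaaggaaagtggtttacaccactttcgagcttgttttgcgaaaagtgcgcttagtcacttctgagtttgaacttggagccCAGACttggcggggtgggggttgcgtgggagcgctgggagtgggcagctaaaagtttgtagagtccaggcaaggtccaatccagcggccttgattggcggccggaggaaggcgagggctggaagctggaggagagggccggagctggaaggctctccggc
Smad3: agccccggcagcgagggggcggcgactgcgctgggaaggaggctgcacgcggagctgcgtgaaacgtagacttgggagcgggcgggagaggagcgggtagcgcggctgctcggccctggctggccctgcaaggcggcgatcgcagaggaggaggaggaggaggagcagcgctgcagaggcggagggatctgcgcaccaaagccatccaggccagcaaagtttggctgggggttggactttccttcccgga
A match of these letters is a description of the sequence, and no binding was measured here.

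**Figure D2:**
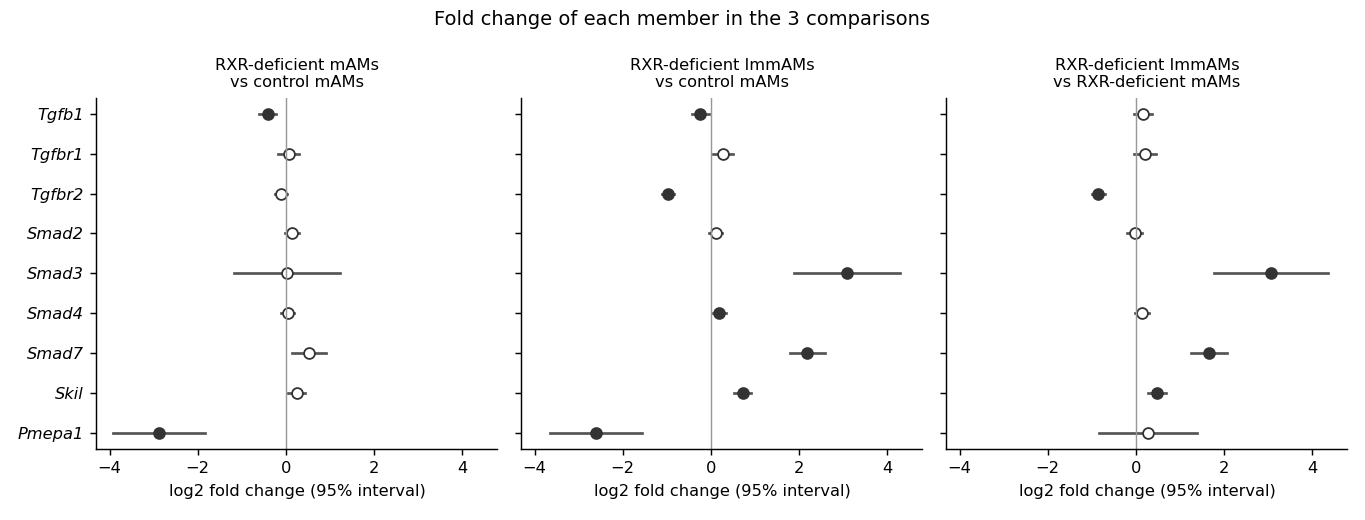
Log2 fold change (points) of the 9 genes with its 95% interval (lines) in the 3 comparisons, from the limma fit of 10 libraries. Filled points passed the adjusted p threshold of 0.05. *Pmepa1* lies at −2.88 and −2.61 in the 2 comparisons with control mAMs, and *Tgfbr2* at −0.97 and −0.85 in the 2 comparisons of ImmAMs.

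The feedback genes did not move together. *Smad7* (ENSMUSG00000025880; chromosome 18, 75367529 to 75395935, plus strand), which blocks TGFBR1 and directs it to degradation, was at 3.10, 2.71, 2.91 and 3.41 CPM in control mAMs (67 to 117 reads per library). It was at 4.45, 3.63 and 5.13 CPM in RXR-deficient mAMs (85 to 96 reads) and at 4.28 CPM in replicate 4. In ImmAMs it was at 15.5, 12.9 and 13.1 CPM (249 to 278 reads). The 3 groups did not overlap, with replicate 4 or without it. The log2 fold change of ImmAMs was 2.19 against control mAMs (SE 0.180, limma adjusted p = 5.12e-07) and 1.66 against RXR-deficient mAMs (SE 0.192, limma adjusted p = 1.96e-05), and both calls held in 23 of 23 alternative settings. In RXR-deficient mAMs against control mAMs the difference was 0.53 (95% interval 0.14 to 0.92) and did not pass the test (limma adjusted p = 0.102), nor in any of 23 alternative settings (adjusted p from 0.0613 to 0.305).

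*Skil* (ENSMUSG00000027660; chromosome 3, 31095058 to 31122577, plus strand) encodes SnoN, a co-repressor that holds SMAD complexes inactive and is degraded on TGF-beta signalling. *Skil* was at 226, 197, 198 and 175 CPM in control mAMs (199 ± 20.8 CPM; SD, n = 4). It was at 248, 206 and 251 CPM in RXR-deficient mAMs (235 ± 25.1 CPM; SD, n = 3), with 194 CPM in replicate 4, and at 339, 307 and 335 CPM in ImmAMs (327 ± 17.8 CPM; SD, n = 3). The ImmAM libraries were above all mAM libraries, and the 2 mAM groups overlapped. On the log2 scale the difference was 0.72 in ImmAMs against control mAMs (SE 0.0927, limma adjusted p = 3.17e-05) and 0.48 against RXR-deficient mAMs (SE 0.0991, limma adjusted p = 0.00200). RXR-deficient mAMs differed from control mAMs by 0.24 (95% interval 0.04 to 0.44), which did not pass the test (limma adjusted p = 0.137).

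*Pmepa1* (ENSMUSG00000038400; chromosome 2, 173224458 to 173276533, minus strand) encodes a membrane protein that binds SMAD2 and SMAD3 and keeps them from the receptor. It was at 31.3, 31.3, 34.4 and 37.3 CPM in control mAMs (759 to 1185 reads per library). In RXR-deficient mAMs it was at 2.70, 15.4 and 2.24 CPM in replicates 1 to 3 and at 6.71 CPM in replicate 4, from 58, 363, 40 and 146 reads. In ImmAMs it was at 4.92, 5.82 and 5.75 CPM (82 to 125 reads). Each of the 7 RXR-deficient libraries lay below each of the 4 control libraries. The RXR-deficient mAM libraries spread over a wider range (2.24 to 15.4 CPM) than the control or the ImmAM libraries, and the ImmAM values lay inside that range. Against control mAMs, the log2 fold change was −2.88 in RXR-deficient mAMs (SE 0.483, limma adjusted p = 0.00811) and −2.61 in ImmAMs (SE 0.483, limma adjusted p = 6.44e-04). Replicate 2 decided the size of the first: without it the log2 fold change was −3.77 (limma adjusted p = 1.17e-07), and with replicate 4 added it was −2.74 (limma adjusted p = 0.00508). The quasi-likelihood test of edgeR gave −2.28 (adjusted p = 0.0248). Between ImmAMs and RXR-deficient mAMs the difference was 0.27 with a wide 95% interval (−0.85 to 1.39, limma adjusted p = 0.714), and without RXR-deficient mAM replicate 2 it became 1.155 and was called (limma adjusted p = 1.78e-04).

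RXR-deficient mAM replicate 2, the library with the most *Pmepa1* of its group, also had the lowest sum of the CD11b+ macrophage markers in that group (101 CPM, against 116, 133 and 132 CPM in replicates 1, 3 and 4). Most of that sum was *Cd14* (62.6 CPM in replicate 2, against 77.7 to 92.9 CPM in the other 3). *Itgam* and *Cx3cr1* were also lowest in replicate 2. The other markers of that list with values were not, and *Apoe* was highest there (15.7 CPM against 10.2 to 11.5 CPM). Of the 10 mAM markers, 7 were highest in replicate 2, among them *Krt79* (402 CPM against 116 to 217 CPM in the other 3) and *Cidec* (349 CPM against 239 to 279 CPM). *Car4*, *Chil3* and *Itgax* were not, and *Itgax* was lowest there (1639 CPM against 1837 to 1937 CPM). For *Marco* (286 CPM against 281 to 285 CPM) and *Pparg* (233 CPM against 219 to 231 CPM) the margin was small. The share of all genes that were highest in replicate 2 was not counted. The sum of the mAM markers was highest in replicate 3 (28930 CPM), with 25064 CPM in replicate 2 and 22793 to 23010 CPM in the other 2. In the 4 libraries, 4 of the 10 mAM markers (*Marco*, *Ear2*, *Krt79* and *Cidec*) had the same order as *Pmepa1*, and 2 of the 9 CD11b+ macrophage markers (*Itgam* and *Cx3cr1*) had the opposite order. Of all 12932 genes, 4.16% had the same order and 4.21% the opposite order. These orders were looked up after the values of *Pmepa1* had been seen, and their part in the spread of *Pmepa1* was not tested.

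Over the 11 libraries, the genes whose log2 CPM followed *Pmepa1* most closely were *Nck2*, *Ripk3*, *Rhoc*, *Zbtb10* and *Fabp4*. Likeness was measured as the root mean square difference of log2 CPM after the mean of each gene was subtracted, among 10412 genes. This difference was 0.573 for *Nck2*, an adaptor of receptor kinases, and 0.756 for *Ripk3*, a kinase of necroptosis, against a median of 1.46 over all those genes. It was 0.780 for *Rhoc*, a small GTPase, 0.786 for *Zbtb10*, which encodes a zinc finger protein, and 0.794 for *Fabp4*, a lipid carrier of mAMs. In the 4 RXR-deficient mAM libraries, *Nck2* was at 0.854, 6.99, 1.91 and 2.63 CPM, and thus also highest in replicate 2. Since the genes were picked for this likeness, it is a description without a test.

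**Figure D3:**
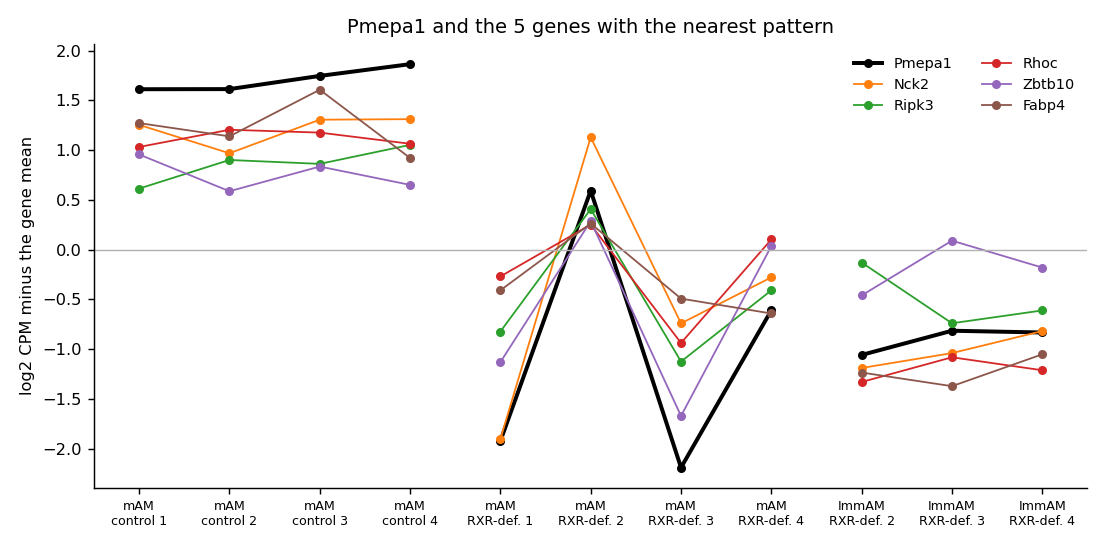
Log2 CPM minus the mean of the gene over the 11 libraries (vertical axis) for *Pmepa1* (black) and the 5 genes with the nearest pattern (colours), by library. *Pmepa1* is at 1.61 to 1.86 in the control libraries, from −2.19 to 0.59 in RXR-deficient mAMs with replicate 2 at the top, and from −1.06 to −0.82 in ImmAMs.

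Between genes, levels were compared per kb of exon. In control mAMs the order was *Tgfbr1* (93.4 CPM per kb), *Tgfb1* (85.5), *Tgfbr2* (78.2), *Skil* (20.5), *Smad4* (13.4), *Smad2* (6.93), *Pmepa1* (6.84), *Smad7* (0.671) and *Smad3* (0.0606), all in CPM per kb. The libraries overlapped between *Tgfbr1* and *Tgfb1*, between *Tgfb1* and *Tgfbr2* and between *Smad2* and *Pmepa1*, and the other neighbours in the order did not overlap. In the 4 RXR-deficient mAM libraries the first 3 were *Tgfbr1* (92.4 CPM per kb), *Tgfbr2* (73.1) and *Tgfb1* (69.0), of which *Tgfbr2* and *Tgfb1* overlapped. *Pmepa1* (1.379 CPM per kb) overlapped with *Smad7* (0.967 CPM per kb). In ImmAMs no neighbours overlapped: *Tgfbr2* (39.9 CPM per kb) stood next above *Skil* (33.7 CPM per kb), and *Smad7* (3.06 CPM per kb) stood above *Pmepa1* (1.12 CPM per kb). *Smad3* was at 0.0598 CPM per kb in RXR-deficient mAMs and 0.504 CPM per kb in ImmAMs, and it was the lowest of the 9 genes in all 3 groups.

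**Figure D4:**
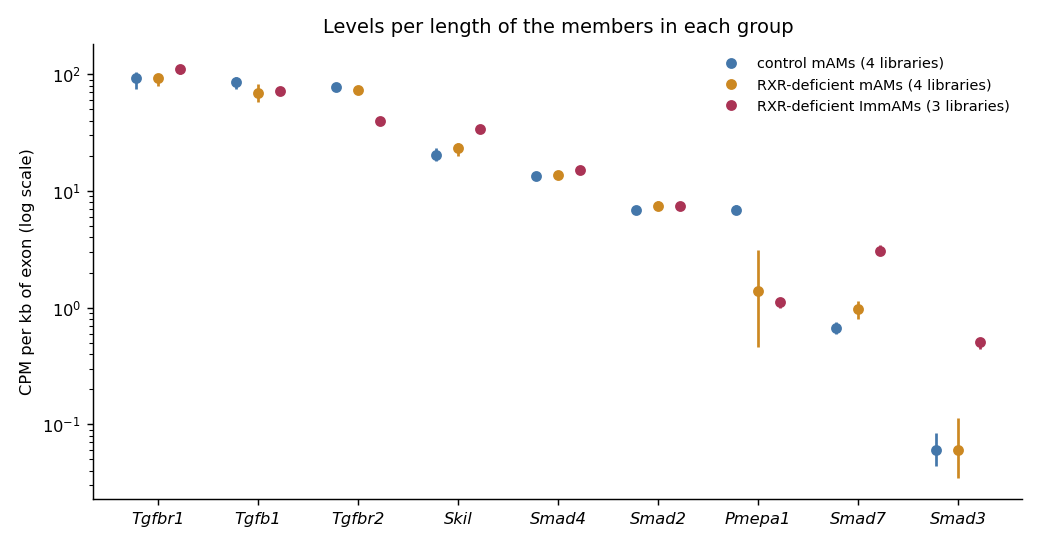
Level per length (CPM per kb of exon, log axis) of the 9 genes in control mAMs, RXR-deficient mAMs (4 libraries) and RXR-deficient ImmAMs, with points for group means and lines from the lowest to the highest library. The genes are ordered by their level in control mAMs, from 93.4 CPM per kb for *Tgfbr1* to 0.0606 CPM per kb for *Smad3*.

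Around these 9 genes, 60 other genes of the pathway were looked up in 5 lists, and 48 of them had values and were tested. In RXR-deficient mAMs against control mAMs, 4 rose and 1 fell (10.4% of the 48, beside 4.84% of all genes tested, 2.25% higher and 2.59% lower). Those that rose were *Acvr2a*, *Trim33*, *Spsb1* and *Itgae*, and *Zfyve9* fell. With RXR-deficient mAM replicate 4 in the fit, 3 rose (*Spsb1*, *Itgae* and *Cdkn1a*) and *Zfyve9* fell. In ImmAMs against control mAMs 25 rose and 12 fell (77.1% of the 48, beside 48.1% of all genes, 22.8% higher and 25.3% lower). Against RXR-deficient mAMs 19 rose and 11 fell (62.5%, beside 37.9% of all genes, 17.7% higher and 20.2% lower). With replicate 4 these counts were 23 and 11, and 20 and 10. The median log2 fold change over the 48 genes was 0.08, 0.33 and 0.25 in the 3 comparisons, and over all genes tested it lay between −0.0053 and −0.0019. Of the 48 genes, 4 (*Thbs1*, *Smad6*, *Bambi* and *Itgae*) did not reach the filter in mAMs alone, so the counts do not stand for the lists as a whole.

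The list of ligand processing, storage and release had 9 of 14 genes tested, of which limma, edgeR and limma-voom called 0 in RXR-deficient mAMs and DESeq2 called 1 (*Ltbp2*, lower), with 2 at an unadjusted limma p under 0.05 (*Ltbp2* and *Tgfb2*). In ImmAMs against control mAMs 5 rose (*Thbs1*, *Tgfb2*, *Itgb5*, *Itgav* and *Furin*) and *Ltbp2* fell. *Thbs1* encodes thrombospondin 1, which can release active TGF-beta from its latent complex. It had 29, 10, 7 and 1 reads in control mAMs and 144, 161 and 147 reads in ImmAMs (0.0737 to 0.779 and 7.49 to 8.61 CPM). Its log2 fold change of 4.79 (SE 0.754, limma adjusted p = 1.79e-04) depends on the 0.5 read added to each value and ranged from 2.71 to 5.27 over the alternatives. *Thbs1* passed the filter only through the ImmAM libraries, so its direction was fixed by that filter. *Furin*, the protease that cuts the TGF-beta precursor, and the integrin genes *Itgav* and *Itgb5*, whose product binds latent TGF-beta, were also called higher.

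Among the other receptors, 1 of 8 tested was called in RXR-deficient mAMs and 7 of 8 in ImmAMs against control mAMs (5 higher and 2 lower), beside 4.84% and 48.1% of all genes. The called fall was largest for *Acvr1b*, a type I receptor for activins that also uses SMAD2 and SMAD3. *Acvr1b* was at 164, 163, 141 and 181 CPM in control mAMs, at 147, 177 and 124 CPM in RXR-deficient mAMs (153 CPM in replicate 4) and at 77.6, 76.7 and 76.3 CPM in ImmAMs (log2 fold change of ImmAMs against control mAMs −1.07, SE 0.110, limma adjusted p = 4.31e-06). *Acvr2a*, a type II receptor for activins, was at 9.21 to 13.6 CPM in control mAMs and 16.4 to 17.5 CPM in ImmAMs (log2 fold change 0.69, SE 0.143, limma adjusted p = 0.00142). It was also called in RXR-deficient mAMs (14.4 to 17.4 CPM; log2 fold change 0.58, SE 0.143, limma adjusted p = 0.0402), but in 10 of 23 alternative settings only, and replicate 4 stood at 11.6 CPM. That call was lost with replicate 4 in the fit and without control replicate 2, 3 or 4, RXR-deficient mAM replicate 1 or 3 or any ImmAM library (adjusted p up to 0.148 over the alternatives).

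The list of other SMADs and their partners had 6 of 8 genes tested, and *Trim33* and *Zfyve9* were called in both comparisons with control mAMs. *Zfyve9* encodes SARA, an anchor that presents SMAD2 and SMAD3 to the receptor. It was at 15.6, 13.4, 17.1 and 12.4 CPM in control mAMs, at 5.10, 9.92 and 7.06 CPM in RXR-deficient mAMs (6.02 CPM in replicate 4) and at 9.63, 10.97 and 8.74 CPM in ImmAMs. Each RXR-deficient library lay below the control libraries. Its log2 fold change was −1.03 in RXR-deficient mAMs (SE 0.205, limma adjusted p = 0.0173) and −0.58 in ImmAMs (SE 0.205, limma adjusted p = 0.0340), and the difference between these groups was not called. The call in RXR-deficient mAMs was lost without replicate 1 or 3 of that group, and the call in ImmAMs without control replicate 1 or 3 or ImmAM replicate 2 or 4 (adjusted p up to 0.0649 and 0.113). Both were also lost with no variance trend, and they held in 20 and 18 of 23 alternative settings. *Trim33*, a ubiquitin ligase that binds SMAD2, SMAD3 and SMAD4, was at 43.2 CPM on average in control mAMs, 55.7 CPM in RXR-deficient mAMs (log2 fold change 0.38, SE 0.0984, limma adjusted p = 0.0481) and 52.2 CPM in ImmAMs (0.28, SE 0.0984, limma adjusted p = 0.0314). The first of these calls held in 8 of 23 alternative settings and was lost with replicate 4 in the fit and on leaving out any library but control replicate 1. The second held in 17 of 23 and was lost with replicate 4 in the fit and without control replicate 2 or 4 or ImmAM replicate 2 or 3. In ImmAMs against control mAMs, *Smad6* and *Smad5* rose and *Smad1* fell besides. *Smad6* passed the filter on low values only through the ImmAM libraries, which fixed its direction.

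Of the 13 co-repressors, ubiquitin enzymes and other brakes tested, limma, edgeR and limma-voom called 0 in RXR-deficient mAMs, and DESeq2 called 1 (*Nedd4l*, lower), with 4 at an unadjusted limma p under 0.05. In ImmAMs against control mAMs 5 rose and 4 fell. Among those that rose, *Bambi* passed the filter on low values only through the ImmAM libraries, which fixed its direction. *Tgif1*, a co-repressor of SMAD complexes, was at 30.2 to 37.8 CPM in control mAMs, 33.6 to 41.1 CPM in the 4 RXR-deficient mAM libraries and 79.5 to 85.2 CPM in ImmAMs. The log2 fold change of ImmAMs against control mAMs was 1.27 (SE 0.0888, limma adjusted p = 1.17e-07). *Ppm1a*, a phosphatase that removes the activating phosphates of SMAD2 and SMAD3, fell from 106 to 121 CPM in control mAMs to 85.6 to 88.0 CPM in ImmAMs (log2 fold change −0.40, SE 0.0743, limma adjusted p = 6.86e-04).

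Genes known to be induced by TGF-beta in many cell types went in both directions in ImmAMs. Of 12 tested, 7 rose against control mAMs (*Itgae*, *Spsb1*, *Id2*, *Cdkn1a*, *Tgfbi*, *Junb* and *Bhlhe40*) and 3 fell, among them *Id1* and *Klf10*, while in RXR-deficient mAMs limma called 2 higher and 0 lower (6 and 1 at an unadjusted p under 0.05). No other tool called a fall in that list, and edgeR, limma-voom and DESeq2 called 2, 2 and 3 genes higher. Limma, edgeR and limma-voom called *Itgae* and *Spsb1*, while DESeq2 called *Id2*, *Cdkn1a* and *Spsb1*. *Itgae* passed the filter on low values only through RXR-deficient libraries. That filter favoured its rise against control mAMs, so *Itgae* is no support for these counts. *Spsb1*, an adaptor of a ubiquitin ligase that acts on TGFBR2, was at 10.4 to 11.1 CPM in control mAMs, at 15.5, 14.4 and 25.1 CPM in RXR-deficient mAMs (14.9 CPM in replicate 4) and at 36.4 to 40.1 CPM in ImmAMs. Its 3 groups did not overlap. The log2 fold change was 0.74 in RXR-deficient mAMs (SE 0.161, limma adjusted p = 0.0248), which was lost without control replicate 2 or 3 or RXR-deficient mAM replicate 3, and 1.86 in ImmAMs (SE 0.161, limma adjusted p = 8.25e-07).

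**Figure D5:**
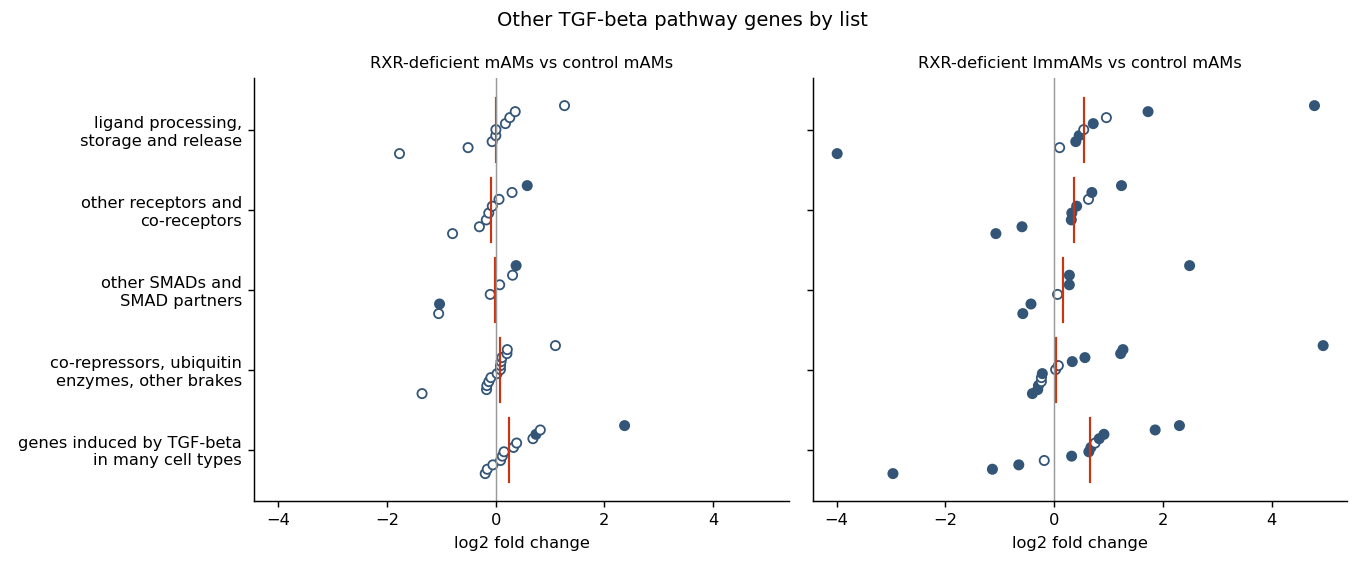
Log2 fold change (horizontal axis) of the 48 tested genes of the 5 pathway lists against control mAMs, in RXR-deficient mAMs (left) and ImmAMs (right). Each point is a gene, filled where it passed the adjusted p threshold of 0.05, and red lines are list medians. Filled points number 5 on the left and 37 on the right, and on the right they lie on both sides of 0.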

How the data were processed

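RNA was measured in 11 libraries of sorted AMs, grouped by their labels. The authors lysed 40000 cells per library, prepared directional libraries, trimmed reads with Cutadapt (reads under 30 bases discarded), mapped them to the GRCm38 transcriptome (Ensembl 99), quantified them with RSEM (version 1.3.1 per the submitters' processing notes) and normalized them with limma by the TMM method, with genes kept that reached 1 CPM in 3 or more samples. The deposited CPM values are reads plus 0.5, times a step fixed within each library, so the reads could be recovered (100% of values came within 0.01 of a whole number). The methods name lavage and the series text lung digestion as the source of cells, so the source is uncertain. Sequencer names differ likewise. Replicates are labelled as separate biological samples.

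Here log2 of the deposited values was fitted in limma 3.58.1 (R 4.3.3; 10 libraries, 3 group means, eBayes, trended variance). The 12889 genes that reached 1 CPM in 3 or more of them were tested, two-sided, and p-values were adjusted by the Benjamini-Hochberg method over all of these genes, with 0.05 as the threshold. Intervals are 95% intervals of the fit. The recovered reads were also tested with edgeR 4.0.16 (quasi-likelihood), limma-voom and DESeq2 1.42.0, and the fits were checked on simulated data. Positions and exon lengths are those of GENCODE vM21, which held 12927 of the 12932 genes, and promoter windows from RefSeq. At most 0.0977% of the 60-base transcript windows of a member were found in another gene. Each of the 9 genes is named. Of each pathway list, the called genes with the largest rise and fall in each comparison with control mAMs, at a mean of 5 CPM or more in the higher group, are given with values. Values of 1 such gene are left out of the text, although list counts hold it. *Furin*, *Itgav*, *Itgb5*, *Tgfb2*, *Ltbp2*, *Smad1*, *Smad5*, *Smad6*, *Bambi*, *Cdkn1a*, *Nedd4l* and the called TGF-beta-induced genes without values fall outside this rule and were named after their values had been seen. The 9 genes, the lists and the tests were chosen with earlier results of these data known. A p-value covers the spread between these libraries only, and fewer cells of a type or less RNA per cell cannot be told apart in such bulk samples.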

Additional observations from a re-analysis of the deposited data

How the results depend on the processing

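The 9 genes were refitted under 23 alternatives (all 11 libraries, a further pseudocount of 1 CPM, no filter or a filter at 5 CPM, other scalings, only the 2 groups compared, no variance trend, edgeR, DESeq2, limma-voom, the replicate block and each of the 10 libraries left out). Of 605 fold changes, 554 kept direction and side of the threshold, 27 lost the call, 13 gained it and 11 turned direction. The calls of *Tgfbr2*, *Smad7* and *Skil* in both comparisons of ImmAMs, and of *Pmepa1* in ImmAMs against control mAMs, held in every alternative that gave a value. DESeq2 gave *Pmepa1* no adjusted p in any of the 3 comparisons, so *Pmepa1* could not be among its called members. It gave none to 506 of the 12889 genes in RXR-deficient mAMs against control mAMs and to 8 in each comparison of ImmAMs. The reason was not tested. *Smad3* could not be tested with the filter at 5 CPM, without any ImmAM library, or, between the mAM groups, in the fit of these groups alone. *Pmepa1* in RXR-deficient mAMs against control mAMs was not called without the variance trend (adjusted p = 0.0570).

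In RXR-deficient mAMs against control mAMs, the 2 called members became 1 and the 624 called genes 337 with all 11 libraries, 1 and 199 with only the 2 groups compared, 0 and 122 without the variance trend, and 1 and 1352 in DESeq2. Leaving out 1 library gave 1 to 2 members and 162 (RXR-deficient mAM replicate 3) to 861 (control replicate 1) genes. Also past 1.5 times were control replicates 2 and 4, RXR-deficient mAM replicate 1 and ImmAM replicates 2 and 4 (220, 355, 212, 397 and 386 genes) and control replicate 3 (327). In ImmAMs against control mAMs, leaving out 1 library gave 4 to 8 called members, with 4 without ImmAM replicate 2 or 4. With no variance trend, 2861 genes had an unadjusted p under 0.05 in RXR-deficient mAMs. Small differences turned direction: *Tgfbr1* in RXR-deficient mAMs to −0.0072 with all 11 libraries (−0.039 to 0.12 with 1 library left out, negative without control replicate 4), *Smad3* there to −0.15 with all 11 libraries and −0.023 after quantile normalization (−0.43 to 0.42 with 1 library left out), *Smad2* in ImmAMs against RXR-deficient mAMs to 0.020 without RXR-deficient mAM replicate 2 (−0.057 to 0.020 with 1 library left out), and *Pmepa1* in that comparison to −0.31 in edgeR (−0.24 to 1.155 with 1 library left out). The causes were not tested.

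Whether same-numbered libraries of different groups come from the same mice was not found, and the main fit took all libraries as independent. Same-numbered libraries of different groups deviated from their group means with correlations of −0.13 to 0.26. These values cannot decide on pairing, since libraries of different numbers were not compared. With the replicate block, 1 member (*Pmepa1*) and 174 genes were called in RXR-deficient mAMs against control mAMs. At under 15 reads of *Smad3* per mAM library, its differences between mAM groups were limited by depth.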

Other observations

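A pair of other inhibitors of the family, chosen after their values had been seen, were near the detection limit in mAMs and higher in ImmAMs. *Bambi*, a decoy receptor, had 0 to 7 reads in the 4 control libraries, 1 to 13 reads in the 4 RXR-deficient mAM libraries and 47, 57 and 74 reads in ImmAMs. *Smad6*, an inhibitory SMAD of the BMP branch, had 6 to 30, 1 to 30 and 55 to 77 reads. Both passed the filter on low values only through the ImmAM libraries, so their direction was fixed by that filter and they are no support for the list counts. Limma gave log2 fold changes of 4.95 (SE 1.02, adjusted p = 0.00143) and 2.49 (SE 0.823, adjusted p = 0.0241) in ImmAMs against control mAMs, which at these read numbers depend on the 0.5 read added to each value.

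*Ltbp2*, which encodes a matrix protein of the family of latent TGF-beta binding proteins, was lower in each of the RXR-deficient libraries than in any control library, at 1.99 to 3.02 CPM in control mAMs, 0.471 to 1.17 CPM in the 4 RXR-deficient mAM libraries and 0.0298 to 0.394 CPM in ImmAMs. The ImmAM libraries had 0, 6 and 7 reads. The fall was called in ImmAMs (limma adjusted p = 9.93e-04), and its log2 fold change of −3.99 (SE 0.782) depends on the 0.5 read added to each value, while in RXR-deficient mAMs the value of −1.77 (95% interval −3.46 to −0.07, limma adjusted p = 0.193) did not pass the test.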
